A study of Homo sapiens with 2 samples.

Results

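The matrix metalloproteinases (MMP), the disintegrin metalloproteinases (ADAM), the ADAMs with thrombospondin motifs (ADAMTS) and the tissue inhibitors of metalloproteinases (TIMP) were examined in 2 human leiomyosarcoma cell lines. Members were taken by gene symbol, as every gene named MMP, ADAM or ADAMTS followed by digits and nothing else, and TIMP1 to TIMP4. This gave 67 of the 26485 genes in the deposited table, made up of 22 MMP, 22 ADAM, 19 ADAMTS and 4 TIMP genes. SK-LMS-1 and SK-UT-1 are established lines from human leiomyosarcoma, a cancer of smooth muscle. Both were treated with the solvent DMSO, with no dose or time given in the labels, and each line had 1 library of stranded total RNA. The libraries held 6906280 counts in SK-LMS-1 against 7635850 counts in SK-UT-1. Every difference below is therefore one between 2 libraries, with no replicate check, no test and no p-value.

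MMPs are secreted or membrane-bound zinc proteases that cut collagens, proteoglycans and other matrix proteins, and most are made as inactive precursors. ADAMs are mostly anchored in the membrane and shed growth factors, receptors and adhesion molecules from cell surfaces. ADAMTSs are secreted, bind the matrix and cut proteoglycans, procollagens and other large matrix proteins. TIMPs block the active site of MMPs and of some ADAMs and ADAMTSs. In the smooth muscle of the uterus these enzymes take part in the turnover of the matrix.

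Values are CPM, which are counts divided by a library size scaled with TMM, a method that centres most genes on no difference, and levels of different genes are compared only as CPM per kilobase of exon (CPM per kb). The exact 95% interval of a fold follows it in parentheses and covers counting error only. A count of 0 allows up to 3 counts, or 0.458 CPM in SK-LMS-1 against 0.373 CPM in SK-UT-1, and a fold against 0 is a lower bound against that floor. In bulk RNA, fewer expressing cells and less RNA per cell cannot be told apart.

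The smooth muscle label was checked against 11 markers, of which 9 were measured and MYOCD, the master cofactor of the smooth muscle programme, had 0 counts in both lines. CALD1, which encodes caldesmon, reached 749 CPM in SK-LMS-1 against 343 CPM in SK-UT-1, while MYH11, the smooth muscle myosin heavy chain, had 5 counts in SK-LMS-1 against 2 counts in SK-UT-1. Of the 9 measured, 5 (55.6%) were at least 2-fold more abundant in SK-LMS-1 and 3 (33.3%) were so in SK-UT-1. The shares of all measured genes were 21.9% and 18.3%. ACTA2, smooth muscle actin, had 10.5 CPM in SK-LMS-1 against 54.0 CPM in SK-UT-1, 5.13-fold more abundant in SK-UT-1 (3.97 to 6.72). DES, which encodes desmin, had 1 count in SK-LMS-1 against 26 counts in SK-UT-1. MYLK, ACTG2, TAGLN and CNN1, named after their values were seen, went the other way. They were 41.6-fold, at least 16.0-fold, 11.6-fold and 3.93-fold more abundant in SK-LMS-1. The summed level of 1468 CPM in SK-LMS-1 against 529 CPM in SK-UT-1 was carried mainly by CALD1, MYLK and SMTN. The leukocyte genes PTPRC and LYZ and the endothelial genes VWF, KDR and TEK were at 0 in both lines. Of 8 leukocyte markers 2 were measured, with sums of 92.9 CPM in SK-LMS-1 against 16.0 CPM in SK-UT-1 that were nearly all CD68, a lysosomal protein of macrophages, and 2 of 6 endothelial markers were measured, with sums of 1.53 CPM in SK-LMS-1 against 1.37 CPM in SK-UT-1. Of 6 fibroblast markers, 5 were measured. Of these, 4 (80%) were at least 2-fold more abundant in SK-LMS-1 and 0 were so in SK-UT-1, beside 21.9% and 18.3% of all measured genes. Their summed levels were 1535 CPM in SK-LMS-1 against 583 CPM in SK-UT-1. DCN, which encodes decorin, had 1 count in SK-LMS-1 against 0 counts in SK-UT-1. Of 6 epithelial markers, 5 were measured. Of these, 2 (40%) were at least 2-fold more abundant in SK-LMS-1 and 1 (20%) was so in SK-UT-1, beside the same 21.9% and 18.3%. Sums of the epithelial markers were 101 CPM in SK-LMS-1 against 48.0 CPM in SK-UT-1. The part of these marker differences in the results below was not tested.

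The secreted matrix proteases differed most between the lines, while the broadly expressed sheddases and the main TIMPs lay within 2-fold. Summed over all MMPs, the level was 576 CPM per kb in SK-LMS-1 against 38.7 CPM per kb in SK-UT-1, a 14.9-fold difference. The ADAMTS sum was 116 CPM per kb in SK-LMS-1 against 5.17 CPM per kb in SK-UT-1, a 22.5-fold difference. The ADAM sums lay close together, at 263 CPM per kb in SK-LMS-1 against 211 CPM per kb in SK-UT-1, a ratio of 1.24. The TIMP sums were 162 CPM per kb in SK-LMS-1 against 109.7 CPM per kb in SK-UT-1, a ratio of 1.48. MMP transcripts thus stood at 3.55 times the TIMP sum in SK-LMS-1 and at 0.353 times the TIMP sum in SK-UT-1. MMP1 and MMP3 carried 44.3% and 28.9% of the MMP sum of SK-LMS-1. An alternative added once the data had been seen left out both genes. The MMP sum was then 154 CPM per kb in SK-LMS-1 against 38.7 CPM per kb in SK-UT-1, a 3.99-fold difference. In SK-LMS-1 this lay under the TIMP sum of 162 CPM per kb. The excess of MMP over TIMP transcripts in that line thus depended on MMP1 and MMP3.

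**Figure D1:**
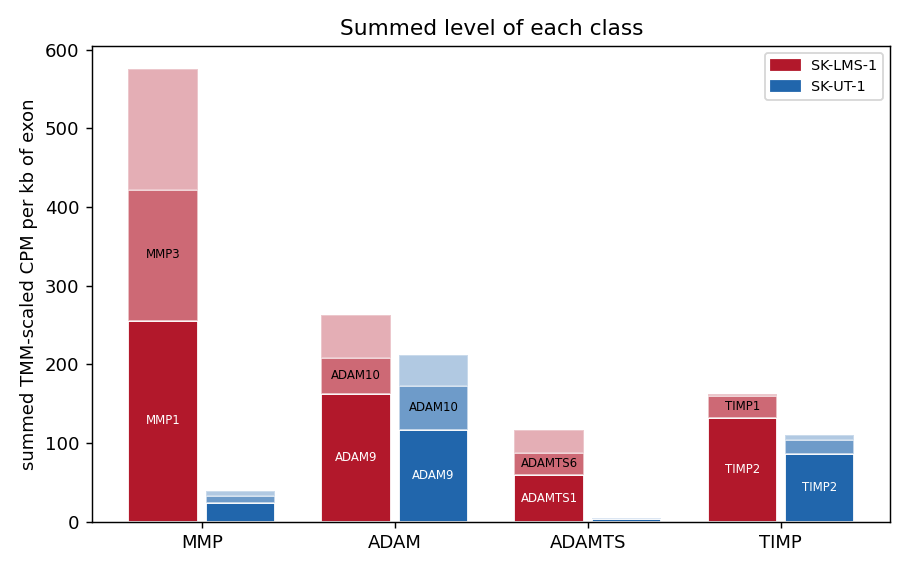
Summed level of each class in CPM per kb of exon (vertical axis, from 0), with SK-LMS-1 in red and SK-UT-1 in blue. Each bar is split into its most abundant gene (darkest), the next gene and the rest; the MMP bars stand at 576 and 38.7, and the ADAM bars at 263 and 211.

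Of the 67 members, 41 (61.2%) reached 1 CPM in the higher library and are called measured, against 54.1% of all genes. Of these, 23 were at least 2-fold more abundant in SK-LMS-1, where 21.9% of all 14324 measured genes were, and 9 were at least 2-fold more abundant in SK-UT-1, where 18.3% of all measured genes were. The other 9 lay within 2-fold. As shares of the measured members these were 56.1% and 22%. At 4-fold, 18 members were higher in SK-LMS-1 and 5 were so in SK-UT-1, beside 11.4% and 7.30% of measured genes. The median log2 ratio of the measured members, SK-LMS-1 over SK-UT-1, was 1.88, and that of all measured genes was 0.01. A gene at 1 CPM in one line and at 0 in the other passes 2-fold by construction. Among measured members 11 had 0 counts in SK-UT-1 and 1 had 0 counts in SK-LMS-1, beside 4.04% and 3.32% of all measured genes. With 5 CPM required in the higher library, 29 members were left, of which 16 were past 2-fold towards SK-LMS-1 and 6 towards SK-UT-1, beside 19.7% and 14.6% of all such genes. With 10 counts or more required in both lines, a rule added once the data had been seen, 17 members were left. Of these, 5 (29.4%) were at least 2-fold more abundant in SK-LMS-1 and 3 (17.6%) were so in SK-UT-1, beside 15.4% and 12.1% of all such genes, and their median was 0.60.

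**Figure D2:**
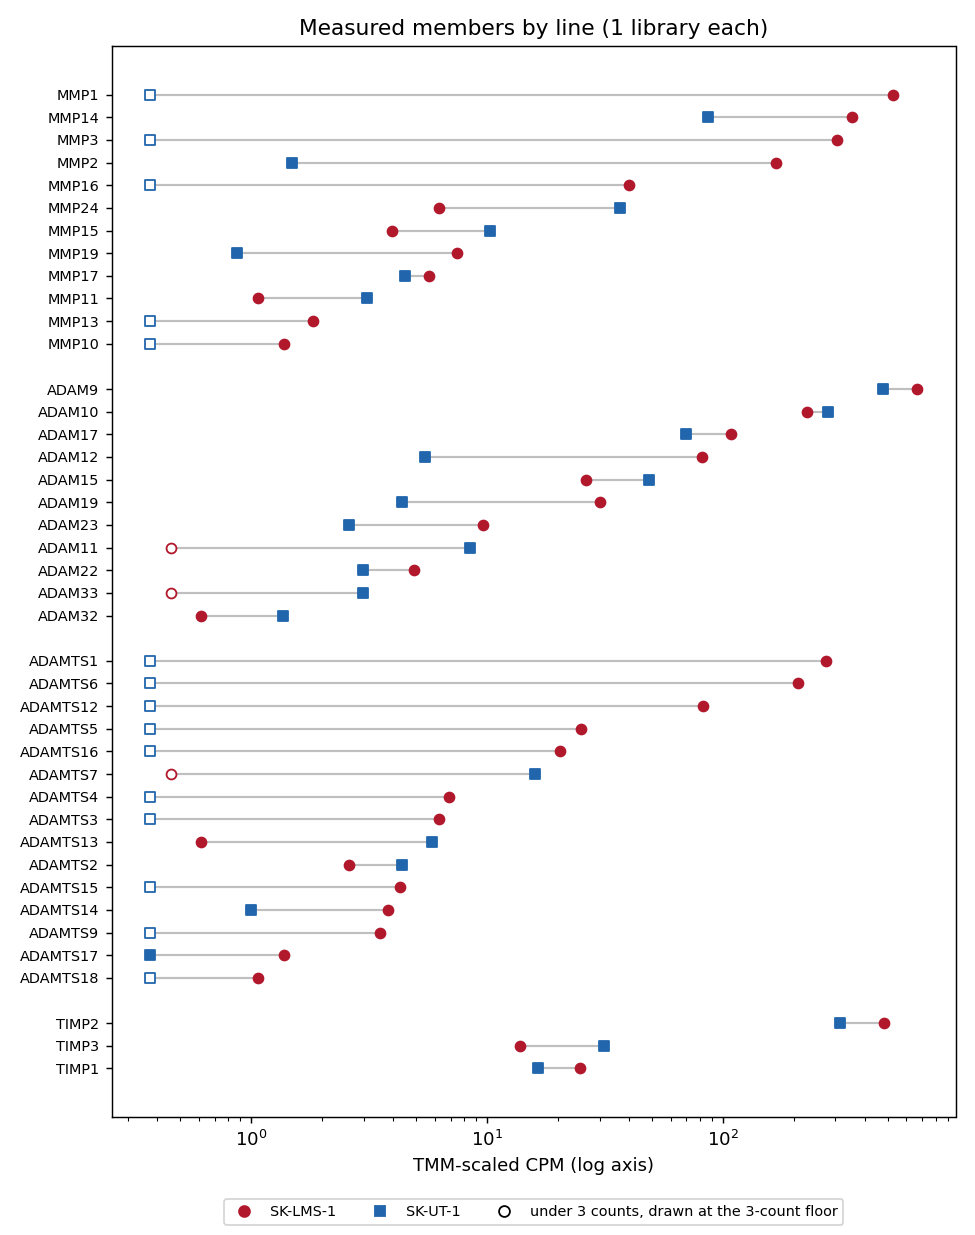
TMM-scaled CPM (logarithmic axis) of the 41 measured members, with SK-LMS-1 as red circles and SK-UT-1 as blue squares, 1 library each. Open symbols are libraries under 3 counts, drawn at the floor; 11 members had 0 counts in SK-UT-1, 7 of them ADAMTS genes.

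The collagenases cut fibrillar collagen. MMP1, interstitial collagenase, had 3439 counts (525 CPM) in SK-LMS-1 against 0 counts in SK-UT-1. At 255 CPM per kb it was the most abundant member of SK-LMS-1. MMP13, which also cuts cartilage collagen, had 12 counts in SK-LMS-1 against 0 counts in SK-UT-1, a difference of at least 4.91-fold. MMP8, the neutrophil collagenase, was at 0 in both lines. Both measured collagenases were thus detected in SK-LMS-1 and in neither case in SK-UT-1.

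The stromelysins have a broad range of matrix substrates and can activate other pro-MMPs. MMP3 had 1992 counts (304 CPM) in SK-LMS-1 against 0 counts in SK-UT-1. MMP10 had 9 counts in SK-LMS-1 against 0 counts in SK-UT-1, a difference of at least 3.68-fold. MMP11, which furin activates inside the cell, went the other way, with 7 counts in SK-LMS-1 against 25 counts in SK-UT-1, 2.91-fold more abundant in SK-UT-1 (1.22 to 7.96). MMP11 is also listed on an alternate scaffold, so fragments that align to both copies may be missing.

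MMP2, the gelatinase that degrades denatured and basement membrane collagen, had 168 CPM in SK-LMS-1 against 1.49 CPM in SK-UT-1. It was 113-fold more abundant in SK-LMS-1 (64.3 to 219), against 12 counts in SK-UT-1. MMP9, the second gelatinase, had 2 counts in SK-LMS-1 against 0 counts in SK-UT-1. The gelatinase signal was therefore MMP2 in both lines.

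Membrane-type MMPs act at the cell surface, and MMP14 activates pro-MMP2 in a complex with TIMP2. Of the 3 MMPs above 50 CPM per kb in SK-LMS-1, MMP14 alone had counts in SK-UT-1. It had 2315 counts (353 CPM) in SK-LMS-1 against 695 counts (86.4 CPM) in SK-UT-1, 4.09-fold more abundant in SK-LMS-1 (3.76 to 4.46). In SK-UT-1 it made up 62.1% of the summed MMP level per kb. MMP16, which shares the transmembrane anchor, had 263 counts in SK-LMS-1 against 1 count in SK-UT-1, a ratio of 323 (57.5 to 12808). The other transmembrane types had more counts in SK-UT-1. MMP24, known from the nervous system, had 41 counts (6.26 CPM) in SK-LMS-1 against 295 counts (36.7 CPM) in SK-UT-1, 5.86-fold more abundant in SK-UT-1 (4.22 to 8.33). MMP15 had 26 counts in SK-LMS-1 against 83 counts in SK-UT-1, 2.60-fold more abundant in SK-UT-1 (1.66 to 4.21). The 4 transmembrane types were thus split, 2 in each direction.

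MMP17, held in the membrane by a lipid anchor, had 37 counts in SK-LMS-1 against 36 counts in SK-UT-1, a ratio of 1.26 whose interval held 1 (0.776 to 2.06). MMP19, a secreted protease found in many tissues, had 49 counts in SK-LMS-1 against 7 counts in SK-UT-1, 8.60-fold more abundant in SK-LMS-1 (3.87 to 22.5). The matrilysins MMP7 and MMP26 and the genes MMP12, MMP20, MMP21, MMP27 and MMP28 were at 0 in both lines, and MMP25 had 0 counts in SK-LMS-1 against 1 count in SK-UT-1. Of 12 measured MMPs, 8 were at least 2-fold more abundant in SK-LMS-1, 3 were so in SK-UT-1 (MMP11, MMP15 and MMP24) and 1 showed a smaller difference (MMP17). The shares past 2-fold were 66.7% and 25%, beside 21.9% and 18.3% of all measured genes. Of the 8 higher in SK-LMS-1, 4 had 0 counts in SK-UT-1, and only MMP2 and MMP14 had 10 counts or more in both lines.

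**Figure D3:**
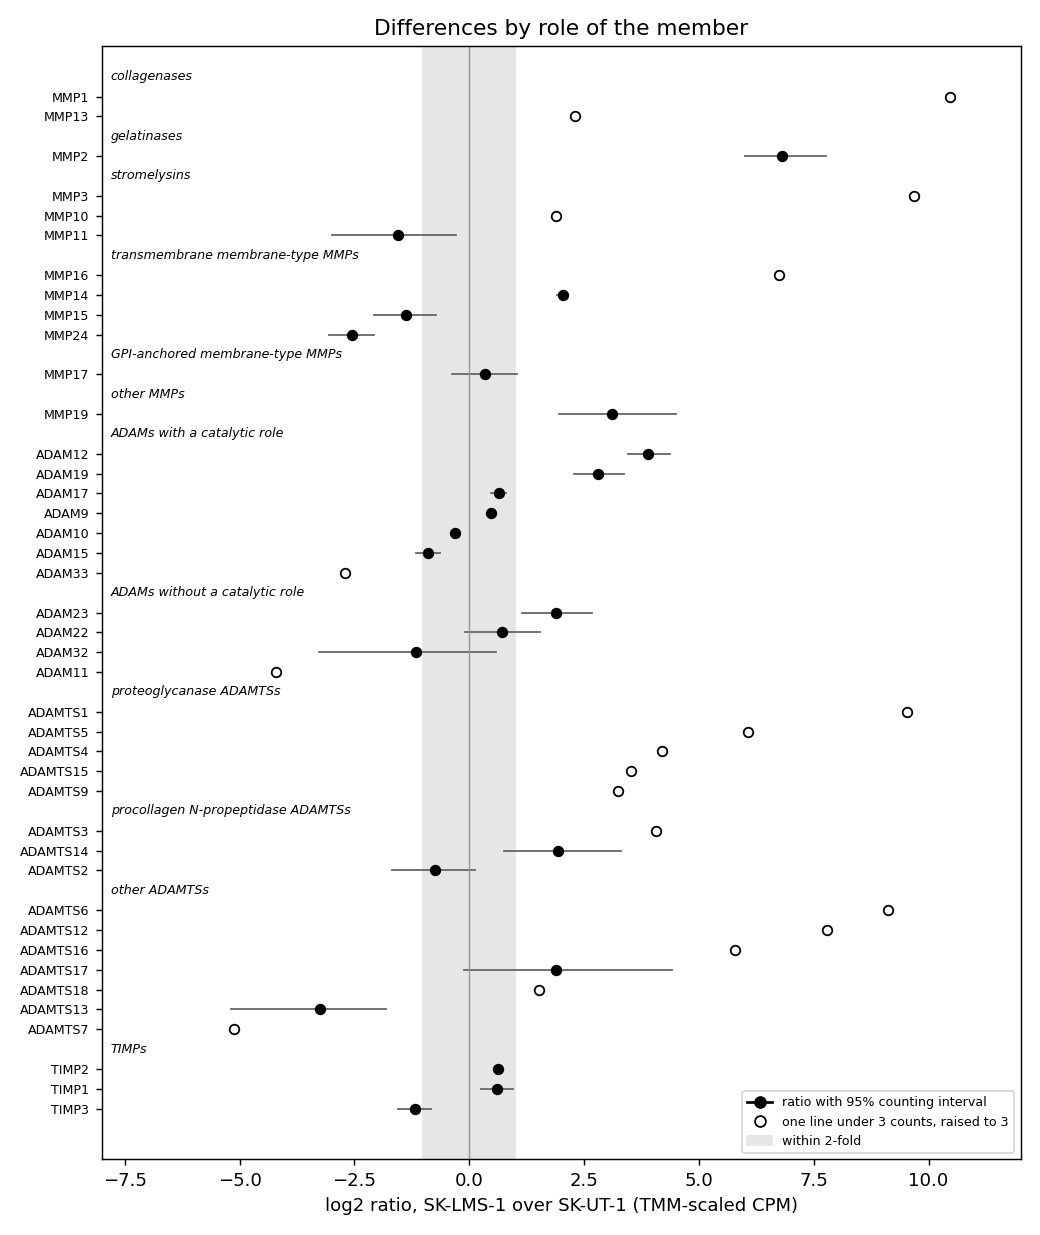
Log2 ratio of TMM-scaled CPM, SK-LMS-1 over SK-UT-1, for the 41 measured members grouped by role. Filled points carry the exact 95% counting interval and open points have a line under 3 counts that was raised to 3. The grey band marks differences within 2-fold. All 5 measured proteoglycanase ADAMTSs lie to the right of the band, each with under 3 counts in SK-UT-1.

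MMP1 and MMP3 lie in a run of 9 MMP genes on chromosome 11 (hg38, 102520508 to 102955734, 435 kb), all on the minus strand. In order along the chromosome these are MMP7, MMP20, MMP27, MMP8, MMP10, MMP1, MMP3, MMP12 and MMP13. SK-LMS-1 had counts for 4 of them (MMP10, MMP1, MMP3 and MMP13), 5452 counts in sum, and SK-UT-1 had 0 counts for all 9. MMP1 spans 102789910 to 102798235 and MMP3 spans 102835797 to 102843611. WTAPP1, a pseudogene on the opposite strand that spans MMP1, had 22 counts in SK-LMS-1 against 0 counts in SK-UT-1.

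The 4 nearest genes before the run and the 2 nearest after it were expressed in both lines. TMEM123, the nearest gene before MMP7, had 632 CPM in SK-LMS-1 against 361 CPM in SK-UT-1, a ratio of 1.75 (1.67 to 1.84). BIRC3, an inhibitor of apoptosis, was 7.89-fold more abundant in SK-LMS-1 (6.82 to 9.16), its neighbour BIRC2 2.55-fold (2.40 to 2.72), and the Hippo effector YAP1 1.92-fold (1.81 to 2.04). After MMP13, DCUN1D5 had 38.8 CPM in SK-LMS-1 against 45.0 CPM in SK-UT-1, and DYNC2H1, a motor protein of cilia, had 131 CPM in SK-LMS-1 against 113 CPM in SK-UT-1. Further out before the run, CEP126 and C11orf70 also had counts in both lines. After DYNC2H1, the next genes MIR4693, DDI1 and MIR7641-1 had 0 counts in both lines and PDGFD had 1 count in each. These neighbours were chosen by position after the values of the run were known, and those further out are not drawn.

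**Figure D4:**
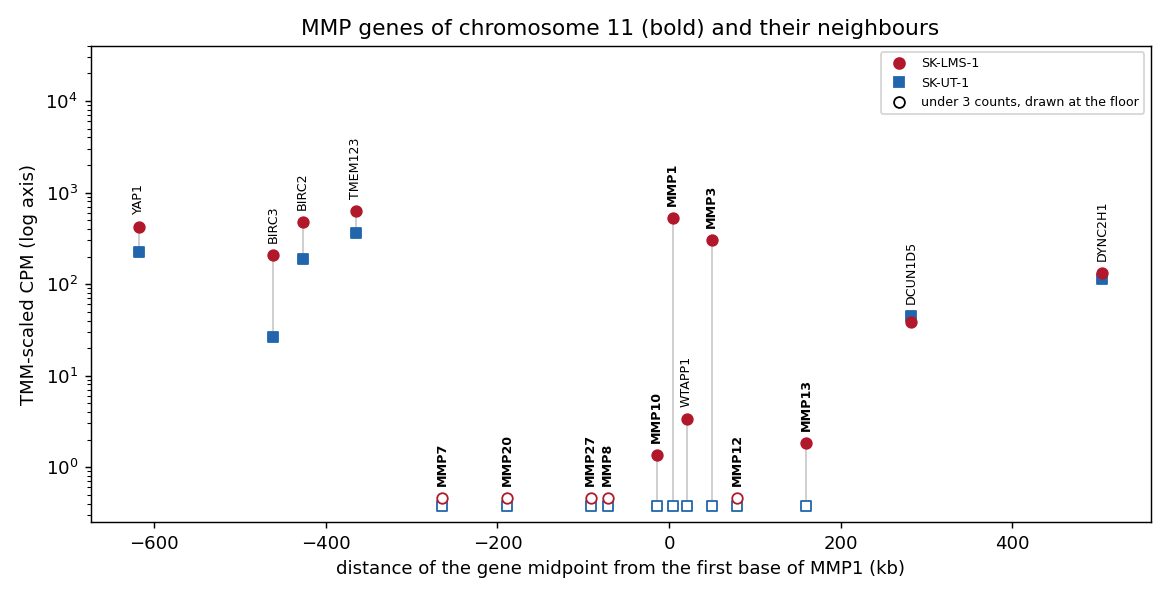
TMM-scaled CPM (logarithmic axis) against the distance of each gene's midpoint from the first base of MMP1 in kb, for the 9 MMP genes of the chromosome 11 run (bold) and 7 nearby genes. Red circles are SK-LMS-1, blue squares are SK-UT-1 and open symbols lie under 3 counts. All 9 MMP genes are at 0 in SK-UT-1, while the flanking genes drawn have counts in both lines. Genes further out, some of them silent in both lines, are not drawn.

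Upstream sequence was available from RefSeq (GRCh38.p14) for 38 of the 67 members, 5 of them in this run. The 250 bases before the annotated start were searched on both strands for the TATA box (TATAAA), the GC box (GGGCGG) and the AP-1 element (TGAGTCA). These motifs were found in 13.0%, 46.2% and 5.19% of 27305 gene symbols with sequence. In the run, 4 of 5 members (MMP7, MMP8, MMP10 and MMP20) held the TATA box and 0 held the GC box, with a GC content of 32.8% to 41.6%. Among the 33 members outside the run, 3 held the TATA box and 25 the GC box, with a median GC content of 69.2%. The AP-1 element was found once, at MMP7, which had 0 counts in both lines. Among the expressed members of the run, MMP10 alone had an entry. The upstream bases of MMP1, MMP3 and MMP13 were therefore not searched for any of these motifs. Of the 13 members with sequence and 10 counts or more in both lines, 12 held the GC box and 0 the TATA box. Motif matches are a description of these letters and not of binding.

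Upstream bases are shown for the expressed member of the run with an entry and for 3 members at 20 CPM or more with large differences in either direction, so that the AT-rich TATA promoter can be set beside promoters of higher GC content. Motif letters on either strand are in capitals, and bases that fall in exons of the deposited annotation are left off. MMP10 (chr11:102780629-102780878, minus strand) has TATAAA with its first base 31 bases before the start (position -31). ADAMTS6 (chr5:65481921-65482170, minus strand) holds none of the 3 motifs, ADAMTS12 (chr5:33892020-33892240, minus strand) holds a GC box at -198, and MMP24 (chr20:35226440-35226689, plus strand) holds GC boxes at -87, -58 and -45.
MMP10: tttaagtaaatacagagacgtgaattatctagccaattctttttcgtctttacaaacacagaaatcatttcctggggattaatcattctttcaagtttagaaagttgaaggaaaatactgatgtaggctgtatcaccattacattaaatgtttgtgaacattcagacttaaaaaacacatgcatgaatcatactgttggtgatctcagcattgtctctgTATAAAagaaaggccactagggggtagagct
ADAMTS6: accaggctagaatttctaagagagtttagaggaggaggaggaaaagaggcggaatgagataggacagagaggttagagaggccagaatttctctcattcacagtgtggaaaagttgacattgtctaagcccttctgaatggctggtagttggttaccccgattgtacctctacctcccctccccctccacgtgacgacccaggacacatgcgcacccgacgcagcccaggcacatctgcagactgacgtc
ADAMTS12: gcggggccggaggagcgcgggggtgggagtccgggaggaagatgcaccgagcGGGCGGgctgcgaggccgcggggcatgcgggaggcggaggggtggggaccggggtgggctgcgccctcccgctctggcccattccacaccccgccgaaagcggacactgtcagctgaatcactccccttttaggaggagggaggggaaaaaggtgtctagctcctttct
MMP24: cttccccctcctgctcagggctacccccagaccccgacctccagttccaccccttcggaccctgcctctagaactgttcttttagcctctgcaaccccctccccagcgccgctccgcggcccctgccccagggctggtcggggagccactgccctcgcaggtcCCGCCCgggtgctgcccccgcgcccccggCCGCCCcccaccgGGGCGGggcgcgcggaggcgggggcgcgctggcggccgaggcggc
The GC content of the bases shown is 34.4% for MMP10, 52.4% for ADAMTS6, 70.1% for ADAMTS12 and 77.6% for MMP24. MMP10 and ADAMTS12 had 0 counts in SK-UT-1, ADAMTS6 had 1 count there, and MMP24 was the member at 20 CPM or more with the largest ratio towards SK-UT-1.

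The proteoglycanase ADAMTSs, which cut versican and aggrecan, were detected almost wholly in SK-LMS-1. ADAMTS1 had 1792 counts (273 CPM) in SK-LMS-1 against 0 counts in SK-UT-1, a difference of at least 734-fold. ADAMTS5, the main aggrecanase of cartilage in mice, had 164 counts in SK-LMS-1 against 0 counts in SK-UT-1, a difference of at least 67.1-fold. Both genes lie next to each other on the minus strand of chromosome 21 (hg38), at 26836287 to 26845409 and 26917912 to 26967120. ADAMTS4 had 45 counts in SK-LMS-1 against 1 count in SK-UT-1, a ratio of 55.3 (9.43 to 2231). ADAMTS15 had 28 counts in SK-LMS-1 against 0 counts in SK-UT-1, and ADAMTS9 had 23 counts in SK-LMS-1 against 2 counts in SK-UT-1. ADAMTS8, the neighbour of ADAMTS15 on chromosome 11, was at 0 in both lines, and ADAMTS20 had 1 count in SK-LMS-1 against 0 counts in SK-UT-1. All 5 measured proteoglycanases were at least 4-fold more abundant in SK-LMS-1, beside 11.4% of all measured genes. Each of them had 2 counts or fewer in SK-UT-1 and so passed the filter through SK-LMS-1 alone, which by itself favours ratios in that direction.

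The procollagen N-propeptidases trim the amino end of fibrillar procollagens. ADAMTS2, the main enzyme for type I procollagen, had 17 counts in SK-LMS-1 against 35 counts in SK-UT-1, a ratio of 1.68 towards SK-UT-1 whose interval held 1 (0.914 to 3.19). ADAMTS3, which also processes the lymphatic growth factor VEGFC, had 41 counts in SK-LMS-1 against 0 counts in SK-UT-1, a difference of at least 16.8-fold. ADAMTS14 had 25 counts in SK-LMS-1 against 8 counts in SK-UT-1, 3.84-fold more abundant in SK-LMS-1 (1.68 to 9.85). Levels of all 3 were low, at or under 1.07 CPM per kb in SK-LMS-1 against 0.615 CPM per kb in SK-UT-1.

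Among the other ADAMTSs, ADAMTS6, which acts on fibrillin microfibrils, had 1362 counts (208 CPM) in SK-LMS-1 against 1 count in SK-UT-1, a ratio of 1673 (300 to 66127). It spans chromosome 5, 65148736 to 65481877. ADAMTS12 and ADAMTS7 form a pair that can cut the cartilage matrix protein COMP, and they were detected in opposite lines. ADAMTS12 had 541 counts (82.6 CPM) in SK-LMS-1 against 0 counts in SK-UT-1, a difference of at least 222-fold. ADAMTS7 had 0 counts in SK-LMS-1 against 129 counts (16.0 CPM) in SK-UT-1, a difference of at least 35-fold. ADAMTS7 was the most abundant ADAMTS of SK-UT-1, with 56.4% of that line's summed ADAMTS level per kb.

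ADAMTS16, described in kidney and gonad, had 134 counts in SK-LMS-1 against 0 counts in SK-UT-1, a difference of at least 54.9-fold. ADAMTS13, the protease of von Willebrand factor made mainly in the liver, had 4 counts in SK-LMS-1 against 47 counts in SK-UT-1, 9.57-fold more abundant in SK-UT-1 (3.50 to 36.6). ADAMTS17 and ADAMTS18 had 9 and 7 counts in SK-LMS-1, and 3 and 0 counts in SK-UT-1. The interval for ADAMTS17 held 1. ADAMTS10 had 1 count in SK-LMS-1 against 7 counts in SK-UT-1, and ADAMTS19 was at 0 in both lines. Of 15 measured ADAMTSs, 12 were at least 2-fold more abundant in SK-LMS-1, 2 were so in SK-UT-1 (ADAMTS7 and ADAMTS13) and 1 lay within 2-fold (ADAMTS2). The shares past 2-fold were 80% and 13.3%, beside 21.9% and 18.3% of all measured genes. Of the 12, 7 had 0 counts in SK-UT-1 and none had more than 8, so all were measured through SK-LMS-1 alone. ADAMTS2 was the only ADAMTS with 10 counts or more in both lines, so the share of 80% rests on genes near or at the floor in SK-UT-1.

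The ADAMs that shed membrane proteins in most cells differed little. ADAM9, a sheddase with several growth factor and adhesion substrates, had 666 CPM in SK-LMS-1 against 477 CPM in SK-UT-1, a ratio of 1.40 (1.34 to 1.46). It is listed on an alternate scaffold of chromosome 8 as well, so fragments that align to both copies may be missing. ADAM10, which cuts Notch receptors and the amyloid precursor protein, had 227 CPM in SK-LMS-1 against 279 CPM in SK-UT-1, 1.23-fold more abundant in SK-UT-1 (1.15 to 1.32). ADAM17, the enzyme that releases TNF and ligands of the EGF receptor, had 108 CPM in SK-LMS-1 against 69.5 CPM in SK-UT-1, a ratio of 1.56 (1.39 to 1.74). ADAM15, which carries an integrin-binding motif, had 26.4 CPM in SK-LMS-1 against 48.8 CPM in SK-UT-1, 1.85-fold more abundant in SK-UT-1 (1.54 to 2.22). All 4 intervals excluded 1, and all 4 ratios lay within 2-fold. Scaled by library totals or by the upper quartile, ADAM15 passed 2-fold, with log2 ratios of -1.04 and -1.02.

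The meltrins ADAM12 and ADAM19, known from muscle and mesenchyme, differed more. ADAM12 had 532 counts (81.2 CPM) in SK-LMS-1 against 44 counts (5.47 CPM) in SK-UT-1, 14.9-fold more abundant in SK-LMS-1 (10.9 to 20.7). ADAM19 had 198 counts (30.2 CPM) in SK-LMS-1 against 35 counts (4.35 CPM) in SK-UT-1, 6.95-fold more abundant in SK-LMS-1 (4.83 to 10.3). ADAM33, a mesenchymal ADAM linked to asthma, had 1 count in SK-LMS-1 against 24 counts in SK-UT-1, a ratio of 19.5 towards SK-UT-1 (3.19 to 803). ADAM8, a leukocyte sheddase, had 5 counts in SK-LMS-1 against 8 counts in SK-UT-1.

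Several ADAMs lack a working catalytic site and act in adhesion, in the brain or on sperm. ADAM11 had 1 count in SK-LMS-1 against 68 counts in SK-UT-1, a ratio of 55.4 towards SK-UT-1 (9.61 to 2218). ADAM23 had 63 counts in SK-LMS-1 against 21 counts in SK-UT-1, 3.68-fold more abundant in SK-LMS-1 (2.22 to 6.36). ADAM22, with ADAM11 and ADAM23 a receptor type of neurons, had 32 counts in SK-LMS-1 against 24 counts in SK-UT-1, a ratio of 1.64 whose interval held 1 (0.935 to 2.91). ADAM32 had 4 counts in SK-LMS-1 against 11 counts in SK-UT-1, 2.24-fold more abundant in SK-UT-1 with an interval that held 1 (0.663 to 9.64), and it too has an alternate copy. Among the remaining ADAMs, ADAM2, ADAM7, ADAM18, ADAM29 and ADAM30, most of them testis genes, and the pseudogenes ADAM5 and ADAM6 were at 0 in both lines. ADAM20, ADAM21 and ADAM28 had 2, 6 and 2 counts in SK-LMS-1, and 0, 1 and 0 counts in SK-UT-1. Of 11 measured ADAMs, 3 (27.3%) were at least 2-fold higher in each line and 5 lay within 2-fold. Among all measured genes the shares were 21.9% towards SK-LMS-1 and 18.3% towards SK-UT-1, so the ADAM shares were not far from these.

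The TIMPs differed less than the secreted proteases. TIMP2, which both inhibits MMPs and helps MMP14 to activate pro-MMP2, had 3169 counts (484 CPM) in SK-LMS-1 against 2521 counts (313 CPM) in SK-UT-1, a ratio of 1.54 (1.46 to 1.63). It made up 81.6% of the TIMP sum per kb in SK-LMS-1 and 78.1% of it in SK-UT-1. TIMP1, a secreted inhibitor of most MMPs, had 163 counts (24.9 CPM) in SK-LMS-1 against 132 counts (16.4 CPM) in SK-UT-1, a ratio of 1.52 (1.2 to 1.92). TIMP3, which stays bound to the matrix and also inhibits ADAM17 and several ADAMTSs, had 90 counts (13.7 CPM) in SK-LMS-1 against 251 counts (31.2 CPM) in SK-UT-1. TIMP3 was the 1 TIMP past 2-fold, at 2.27-fold more abundant in SK-UT-1 (1.78 to 2.92), with an interval that reached below 2-fold. TIMP4, known from the heart, had 1 count in SK-LMS-1 against 5 counts in SK-UT-1.

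Ordered per length, the most abundant members of SK-LMS-1 were MMP1 at 255 CPM per kb, MMP3 at 166, ADAM9 at 163, TIMP2 at 132 and MMP14 at 98.3. The counting intervals of MMP3 (159 to 174) and ADAM9 (158 to 167) overlapped, so their order was not detectable at this depth. In SK-UT-1 the order was ADAM9 at 116 CPM per kb, TIMP2 at 85.7, ADAM10 at 55.5, MMP14 at 24.0, ADAM17 at 19.5 and TIMP1 at 17.9. The intervals of ADAM17 (18.0 to 21.2) and TIMP1 (15.0 to 21.2) overlapped. ADAM9 and TIMP2 were thus among the 4 most abundant members of both lines.

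Other genes of protease control, in a list of 19 that holds activators of pro-MMPs and inhibitors outside the TIMPs, were mostly higher in SK-LMS-1. Of 14 measured, 9 (64.3%) were at least 2-fold more abundant in SK-LMS-1, 1 was so in SK-UT-1 and 4 showed a smaller difference, beside 21.9% and 18.3% of all measured genes past 2-fold in these directions. SERPINB2, an inhibitor of plasminogen activators, had 1650 CPM in SK-LMS-1 against 0 counts in SK-UT-1. TFPI2, an inhibitor of plasmin, was 146-fold more abundant in SK-LMS-1 (66.6 to 399). The activators PLAU and FURIN, named after their values were seen, had ratios of 2.99 (2.74 to 3.27) and 5.77 (4.56 to 7.37) towards SK-LMS-1. BSG, an inducer of MMPs, had 215 CPM in SK-LMS-1 against 254 CPM in SK-UT-1, and CST3, a secreted cysteine protease inhibitor, had 28.1 CPM in SK-LMS-1 against 16.3 CPM in SK-UT-1. Plasminogen (PLG) was at 0 in both lines.

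A list of 12 genes held partners of ADAM10 and ADAM17 in trafficking and maturation. Of these, 8 lay within 2-fold and 2 (16.7%) were at least 2-fold higher in each line, shares near the 21.9% and 18.3% of all measured genes. TSPAN5, a tetraspanin that escorts ADAM10, had the largest ratio of the 12, with 728 counts (111 CPM) in SK-LMS-1 against 4 counts in SK-UT-1, 224-fold more abundant in SK-LMS-1 (86.9 to 823). FRMD8, which stabilises the ADAM17 complex, was 2.25-fold more abundant in SK-UT-1 (1.75 to 2.92). CD9 had 42.1 CPM in SK-LMS-1 against 42.0 CPM in SK-UT-1, and TSPAN17 had 36.8 CPM in SK-LMS-1 against 31.3 CPM in SK-UT-1.

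Membrane proteins that ADAM10 or ADAM17 can shed formed a further list. Of 22 measured in a list of 25, 12 (54.5%) were at least 2-fold more abundant in SK-LMS-1, 4 (18.2%) were so in SK-UT-1 and 6 showed a smaller difference, beside 21.9% and 18.3% of all measured genes. NRG1, a ligand of ERBB receptors, was 82.5-fold more abundant in SK-LMS-1 (54.3 to 132), N-cadherin (CDH2) 44.6-fold (37.4 to 53.7) and the adhesion molecule gene ALCAM 33.5-fold (29.0 to 38.9). EREG, another ligand of this family, was 10.6-fold more abundant in SK-UT-1 (4.31 to 33.7), NOTCH1 3.61-fold (3.04 to 4.32) and IL6R 2.19-fold (1.41 to 3.48). APP had 435 CPM in SK-LMS-1 against 395 CPM in SK-UT-1, and NOTCH2 had 401 CPM in SK-LMS-1 against 332 CPM in SK-UT-1.

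Matrix substrates of the secreted proteases were taken from a list as well. Of 16 measured in a list of 23, 9 (56.3%) were at least 2-fold more abundant in SK-LMS-1, 3 (18.75%) were so in SK-UT-1 and 4 showed a smaller difference, beside 21.9% and 18.3% of all measured genes. VCAN, the versican substrate of the proteoglycanases, had 3435 counts in SK-LMS-1 against 0 counts in SK-UT-1, beside ADAMTS1 with 1792 counts in SK-LMS-1 against 0 counts in SK-UT-1. FN1 and FBN2 had 2069 and 287 CPM in SK-LMS-1, and 0.745 CPM and 0 counts in SK-UT-1. The fibrillar collagens COL3A1 and COL5A2 had ratios of 35.5 (25.7 to 50.7) and 11.5 (10.2 to 13.1) towards SK-UT-1, and the basement membrane gene NID1 one of 8.12 (7.25 to 9.11). The chains of type I collagen, which MMP1 cuts, differed unequally. COL1A1, named after its value was seen, had 776 CPM in SK-LMS-1 against 54.9 CPM in SK-UT-1, 14.1-fold more abundant in SK-LMS-1 (12.8 to 15.6). COL1A2 had 545 CPM in SK-LMS-1 against 467 CPM in SK-UT-1, a ratio of 1.17 (1.11 to 1.22), and COL4A2, a basement membrane collagen, had a ratio of 1.27 (1.08 to 1.48). Aggrecan (ACAN) had 1 count in SK-LMS-1 against 0 counts in SK-UT-1.

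Transcription factors known at MMP promoters were all measured. Of 19, 11 (57.9%) were at least 2-fold more abundant in SK-LMS-1, 1 (5.26%) was so in SK-UT-1 and 7 showed a smaller difference, beside 21.9% and 18.3% of all measured genes. ETV1, of the ETS family, had 513 counts in SK-LMS-1 against 1 count in SK-UT-1, its relative ETV5 was 5.75-fold more abundant in SK-LMS-1 (4.62 to 7.23) and RUNX1 5.21-fold (4.44 to 6.13). FOSL2, an AP-1 subunit, was 2.10-fold more abundant in SK-UT-1 (1.94 to 2.27), while FOSL1, another subunit and named after its value was seen, was 3.98-fold more abundant in SK-LMS-1 (3.51 to 4.53). The NF-kappaB subunits NFKB1 and RELA had 51.6 and 52.2 CPM in SK-LMS-1, and 52.4 and 50.8 CPM in SK-UT-1. What these factors contribute to the levels of the proteases was not tested.

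**Figure D5:**
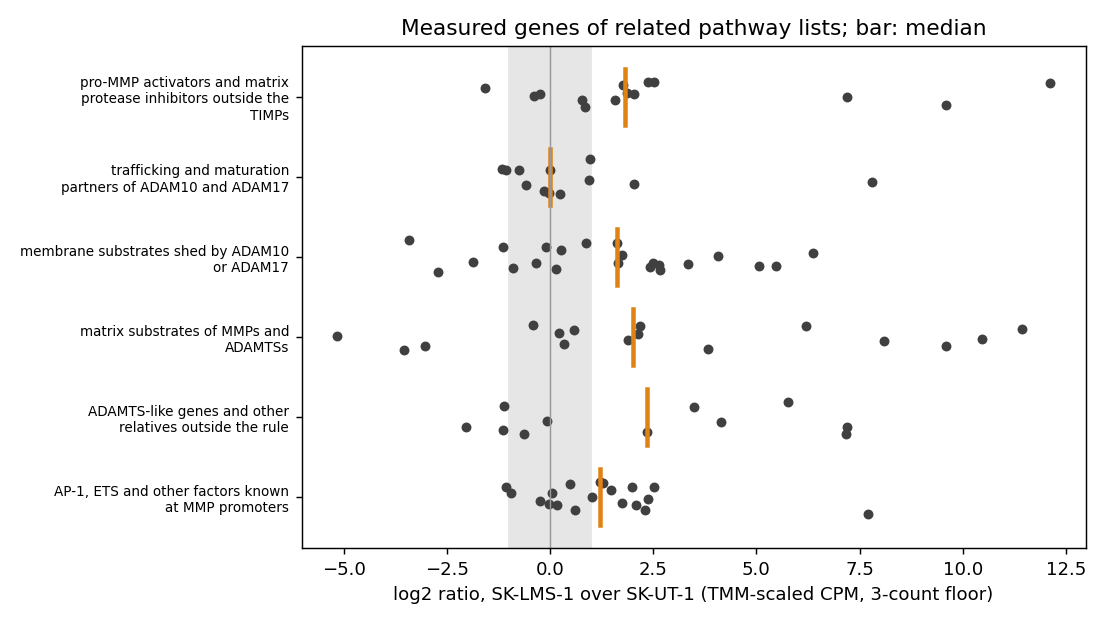
Log2 ratio of TMM-scaled CPM, SK-LMS-1 over SK-UT-1, for the measured genes of 5 lists of related genes and of a list of relatives outside the rule. Each point is a gene, the orange bar is the list median and the grey band marks differences within 2-fold; the partners of ADAM10 and ADAM17 centre on 0 while the other medians lie to the right of the band.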

How the data were processed

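Per the file headers, the deposited values are raw fragment counts per gene name, made by the authors with featureCounts 2.0.1 over exons of a UCSC hg38 annotation with strand setting 1. A fragment that overlaps several genes was counted for each, and no member overlapped another gene on its strand. The authors' aligner was not stated in the labels or headers used here. The table's length column, also per the file headers, gives exon bases per gene. For members that are also listed on an alternate scaffold, only exon bases of the main chromosome were used. The table holds 2 further count columns that match neither sample and were not used.

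Library sizes were scaled by TMM (trimmed mean of M-values) with edgeR 4.0.16 in R 4.3.3 (factors of 0.949 in SK-LMS-1 against 1.05 in SK-UT-1). Counts below 3 were raised to 3 for the size rule and the medians. Exact 95% intervals came from the conditional binomial distribution for folds and the Poisson distribution for levels, with scipy 1.17.1. They treat fragments as independent molecules, which amplified reads are not. With 1 library per line no test was possible. The computation was tested on simulated counts.

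Members and lists were chosen with earlier results of these data known. Named were all TIMPs, all members at 5 CPM or more and the chromosome 11 run, and lower members by count. Of each list, up to 3 genes per direction past 2-fold at 5 CPM were named, and up to 2 near no difference at 20 CPM. Alternatives were 3 other scalings, other filters, floors and size rules, and thinning of the deeper library, with DESeq2 1.42.0 for its size factors. Of the genes that these rules name, 2 list genes are not reported here.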

Additional observations from a re-analysis of the deposited data

How the results depend on the processing

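The 3 scalings other than TMM shifted every log2 ratio by -0.15 (library totals), -0.13 (upper quartile) and 0.00 (DESeq2 size factors), and gave 23 members higher in SK-LMS-1 and 9 or 10 in SK-UT-1. Of members at 5 CPM or more, ADAM15 alone changed its side of the 2-fold rule under these scalings. Without a filter on low counts, the median over all 67 members was 0.30, which is the value of a gene at 0 in both libraries. At 4-fold, 5 members were higher in SK-UT-1, and 5 also had their whole interval beyond 2-fold towards SK-UT-1. With 10 counts in both libraries, which leaves 17 members and removes the genes silent in 1 line, 5 were past 2-fold towards SK-LMS-1, 3 towards SK-UT-1 and the median was 0.60. Summed levels under library totals were 13.4-fold for MMP, 1.12-fold for ADAM, 20.2-fold for ADAMTS and 1.33-fold for TIMP. No member's ratio reversed. Of the list genes named, in a comparison added after seeing the data, CD9 and RELA changed sign under library totals (log2 ratios of -0.15 and -0.11) and under the upper quartile (-0.13 and -0.10), and APP did so under library totals (-0.01). CALD1 fell short of 2-fold under both (0.97 and 0.99). Among list genes not named above, the factor gene ETS1 fell short of 2-fold under library totals and the upper quartile (0.88 and 0.90). The factor gene FOS (-1.10 and -1.09), the shed substrate JAG1 (-1.06 and -1.04) and the epithelial marker KRT19 (-1.11 and -1.09) passed 2-fold towards SK-UT-1. The counts past 2-fold in these lists thus depend on the scaling. Leaving out a library was not possible with 1 library per line. No paired analysis was possible because each line has 1 library. Counts of 1 to 10, as in most low members, limit their ratios to wide intervals.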

Other observations

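Relatives of these families that fall outside the naming rule also differed between the lines. Of 18 genes listed, 11 were measured, of which 6 were at least 2-fold more abundant in SK-LMS-1, 3 were so in SK-UT-1 and 2 showed a smaller difference, beside 21.9% and 18.3% of all measured genes. PAPPA and PAPPA2, metalloproteinases that release insulin-like growth factors from their binding proteins, had 361 and 132 counts in SK-LMS-1, and 1 and 0 counts in SK-UT-1. TLL1, a tolloid protease of procollagen maturation, had 353 counts in SK-LMS-1 against 0 counts in SK-UT-1, while its relative BMP1 had 19.7 CPM in SK-LMS-1 against 20.6 CPM in SK-UT-1, a ratio of 1.05 towards SK-UT-1 whose interval held 1 (0.827 to 1.33). ADAMTSL5, an ADAMTS-like protein without a protease domain, had 18 counts in SK-LMS-1 against 48 counts in SK-UT-1, 2.17-fold more abundant in SK-UT-1 (1.24 to 3.97). ADAMTSL1, named after its values were seen, had 241 CPM in SK-LMS-1 against 47.1 CPM in SK-UT-1, 5.11-fold more abundant in SK-LMS-1 (4.57 to 5.74). ADAMDEC1, MMP23A and MMP23B were at 0 in both lines.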
